A study of Homo sapiens with 2 samples.

Results

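The genes for matrix glycoproteins, matricellular proteins and proteoglycans were compared between lung fibroblasts with and without knockdown of periostin. The group was a list of 50 genes: periostin (POSTN) and its paralogue TGFBI, 15 matricellular and adhesive glycoproteins, 16 elastic fibre and microfibril genes, 8 basement membrane genes, 7 small leucine-rich proteoglycans and 2 large hyaluronan-binding proteoglycans. All 50 were found, through the RefSeq accession of their probes, among the 21743 genes named on the array.

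RNA came from MRC-5 cells, an established line of fetal human lung fibroblasts, and was hybridised to single-colour Agilent expression arrays. The control siRNA sample was a culture transfected with control siRNA at 10 nM for 48 h, and the periostin siRNA sample was a culture transfected with siRNA against POSTN at the same dose and for the same time. Both came from 1 cell line that stands for lung fibroblasts in general only as far as a single line can, and the siRNA sequences are not given in the sources used here. Each condition was represented by 1 array. No test could therefore be made, no p-value is given, and every difference below is one between these 2 arrays.

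The space between cells is filled with collagens and with the proteins described here. Matricellular proteins such as periostin, tenascins and thrombospondins bind to matrix and to integrins on the cell and are best known from tissue repair and scarring. Elastic fibres are built from elastin on a scaffold of fibrillin microfibrils, which also hold latent TGF-β, and laminins, nidogens and perlecan make up the basement membrane. Proteoglycans carry glycosaminoglycan chains and bind collagen fibrils, hyaluronan or growth factors, and lung fibroblasts are a main source of many of these proteins.

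Values are the background-subtracted signals of the scanner program, scaled so that the 75th percentile of each array was the same, at 377. A ratio is periostin siRNA over control siRNA, on the log2 scale. A spot counted as well above background by the flag of the scanner program, which 58.0% of spots (control siRNA) and 58.9% (periostin siRNA) carried, and 0 spots were saturated. The pooled SD of the log2 ratio between spots of 1 probe was 0.12 over 667 probes, while the error propagated by the scanner program for the 44 members read by a single spot ran from 0.20 to 0.44. Neither error covers the spread between cultures. As a check on the cell type, 7 of 7 fibroblast markers were well above background on both arrays, with summed signals of 342648 and 300827, whereas 2 of 5 epithelial markers were. The epithelial signals summed to 74.0 (control siRNA) and 199 (periostin siRNA). The markers above background were EPCAM, an epithelial adhesion molecule, at 34.6 and 135, and SFTPC, a surfactant protein of alveolar cells, at 33.8 and 53.3, while CDH1, SFTPB and KRT5 were below background on both arrays. Of the other lists, 3 of 4 endothelial markers were well above background on both arrays (sums 5582 and 5304, nearly all from TEK, an angiopoietin receptor; PECAM1 was below background), as were 1 of 4 leukocyte markers (PTPRC, at 17.6 and 25.1, with CD74 above background after knockdown alone, at 2.81 and 9.57, and LAPTM5 and HLA-DRA below background) and 1 of 3 mesothelial markers (63.6 and 65.5; MSLN below background). The part of these markers in the ratios of the matrix genes was not tested.

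POSTN, the target of the siRNA, was read by 1 spot, with a signal of 2639 in the control culture and 280 after knockdown. Its log2 ratio of -3.24, or 9.43-fold lower, was the lowest among the members. TGFBI, the other secreted protein of the fasciclin family in the list, had signals of 178936 and 144514, a log2 ratio of -0.31. The target was thus far lower after knockdown, while its paralogue was 1.24-fold lower, against a propagated error of 0.20 on the log2 scale for either gene. In RNA from whole cultures, fewer cells that make a transcript and less of it in each cell cannot be told apart. Of the fasciclin-domain scavenger receptors, STAB1 was well above background with periostin siRNA alone, at a signal of 9.24, and STAB2 on neither array.

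The promoters of these 2 genes are shown here because they begin the comparison of periostin with its paralogue, and the promoters of the thrombospondins past 3-fold follow further on to be set beside them. The 250 bases before the start are printed 5′ to 3′ on the strand of the gene, from RefSeq on GRCh38.p14. POSTN lies at chr13:37598769-37599018 on the minus strand and TGFBI at chr5:136028738-136028987 on the plus strand. Capitals mark letters of 4 short motifs searched on both strands: TATAAA for the core promoter element called the TATA box, GGGCGG for the GC box, TGANTCA for the AP-1 site and GGAATG for the TEAD site. Motifs and genes shown were chosen after the values had been seen.
POSTN: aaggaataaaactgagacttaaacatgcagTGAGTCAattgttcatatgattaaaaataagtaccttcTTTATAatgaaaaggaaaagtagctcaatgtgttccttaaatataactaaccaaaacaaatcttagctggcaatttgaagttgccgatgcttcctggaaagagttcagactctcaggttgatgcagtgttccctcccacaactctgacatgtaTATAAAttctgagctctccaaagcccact
TGFBI: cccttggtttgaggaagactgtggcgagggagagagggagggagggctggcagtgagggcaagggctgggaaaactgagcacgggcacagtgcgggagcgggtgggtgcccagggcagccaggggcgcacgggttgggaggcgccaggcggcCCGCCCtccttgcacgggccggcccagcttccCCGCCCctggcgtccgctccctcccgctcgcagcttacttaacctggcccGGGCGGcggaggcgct

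The POSTN window held TATAAA 29 bases before the start, TTTATA at 182 and TGAGTCA at 220, each position being that of the first letter. The TGFBI window held 3 GC boxes, at 98, 66 and 16 bases, and none of the other motifs. Of 35116 promoters of this length, 10.7% held a TATA box, 42.6% a GC box, 6.57% the AP-1 letters and 11.9% the TEAD letters. A match is a description of letters and not a site in use.

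Of the 50 members, 45 were well above background on both arrays and SPP1 with periostin siRNA alone, while SPARCL1, OGN, PRELP and ACAN were on neither array and have no ratio. The median log2 ratio of the 46 with a ratio was -0.02, against 0.06 for all 16052 genes with a ratio, bounds included. There were 24 members below 0 and 22 above (52.2% below, beside 45.5% of all genes). Most members lay close to 0, with 26 of 46 (56.5%) within 0.5 on the log2 scale, and the share over all genes was 62.6%.

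Members lower by more than 3-fold numbered 2, POSTN and THBS2, which is 4.35% of the 46, and 2.75% of all genes were lower by as much. Members higher by more than 3-fold numbered 3, namely THBS4, MATN2 and COMP, or 6.52% against 3.37% of all genes. At 2-fold, MFAP2 and FMOD joined the lower genes for a total of 4 (8.70%, with 6.42% over all genes), and LAMA4, MFAP4 and SPP1 joined the higher ones for a total of 6 (13.0%, with 7.97% over all genes). These shares rest on few genes, and POSTN is itself the target. Leaving POSTN out, 45 members remained with a median of -0.01, 1 lower by more than 3-fold and 3 higher. Under another background correction (normexp, described with the dim genes further on), 1 member was lower by more than 3-fold, POSTN, and 1 higher, THBS4.

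**Figure D1:**
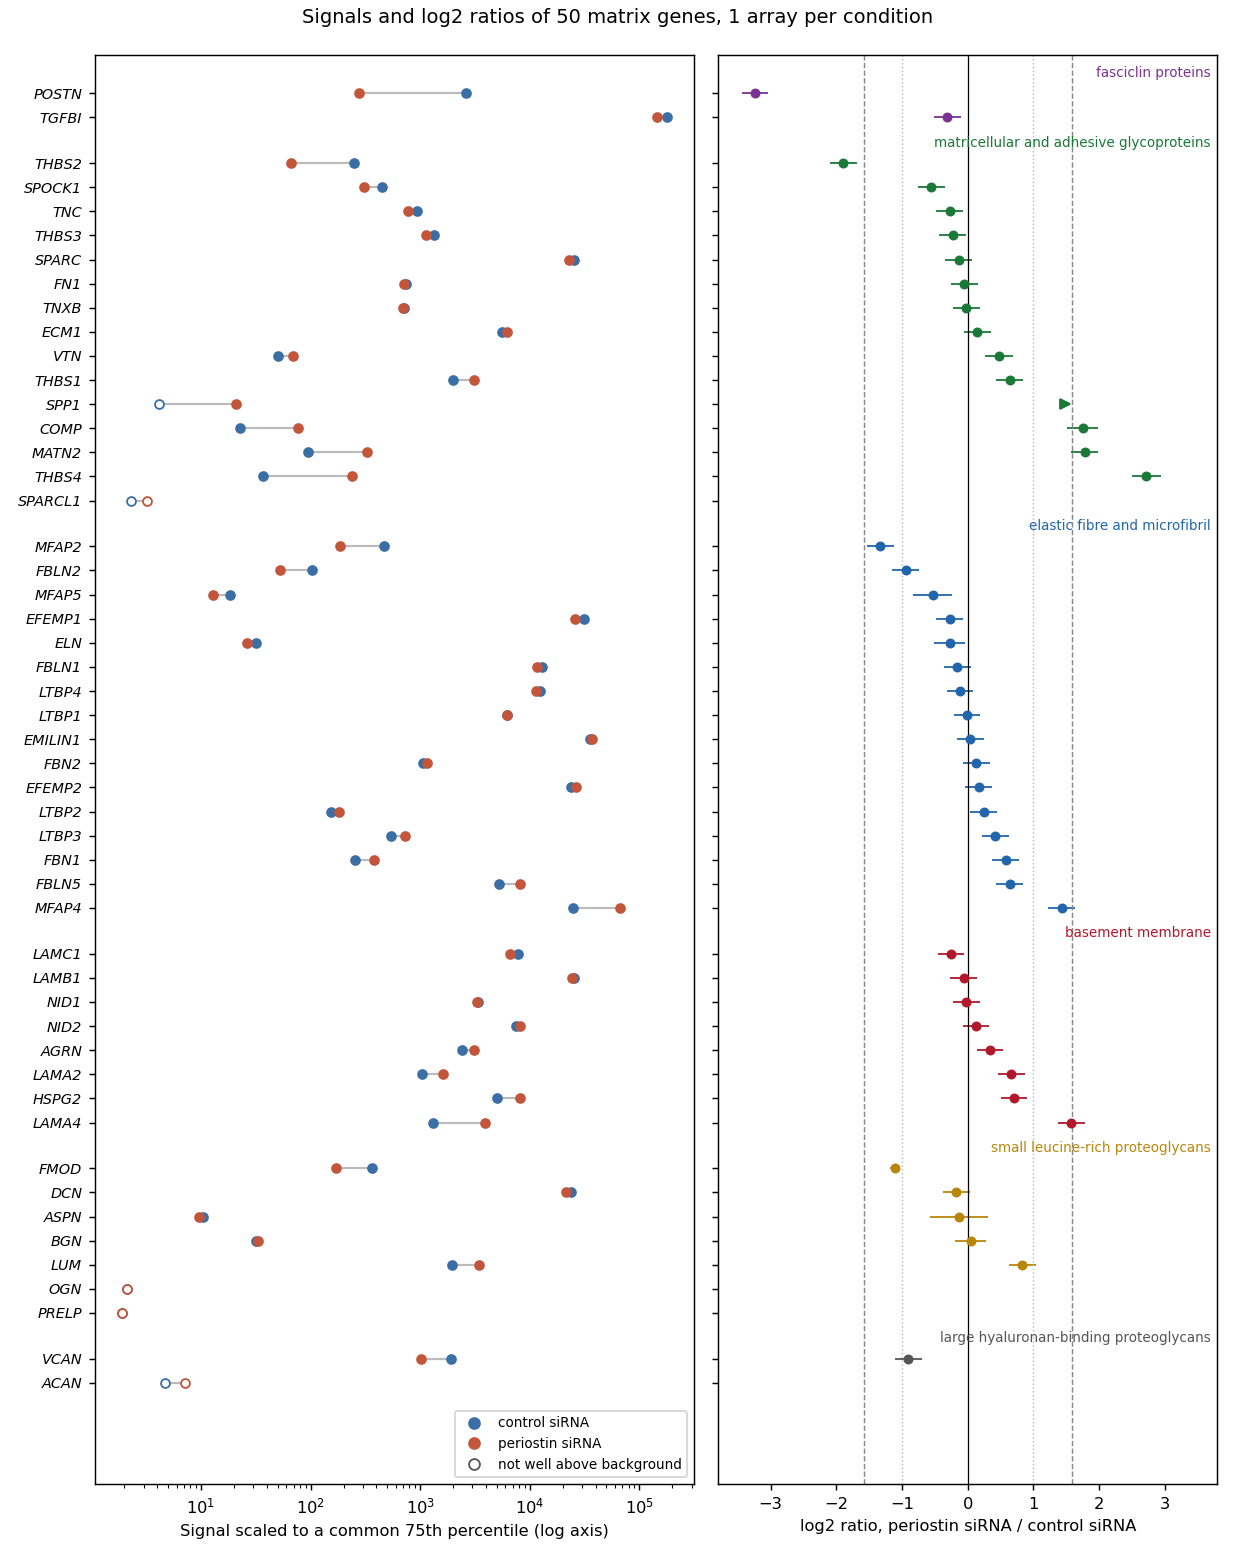
Each row is 1 gene, with, on the left, its signals on the control siRNA array (blue) and the periostin siRNA array (red), on a log axis, with open circles for signals not well above background. On the right is its log2 ratio, with bars for the error of a single spot pair or the SD over replicate spots, dotted lines at 2-fold, dashed lines at 3-fold and an arrowhead for the bound of SPP1, and the ratios run from -3.24 for POSTN to 2.72 for THBS4.

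**Figure D2:**
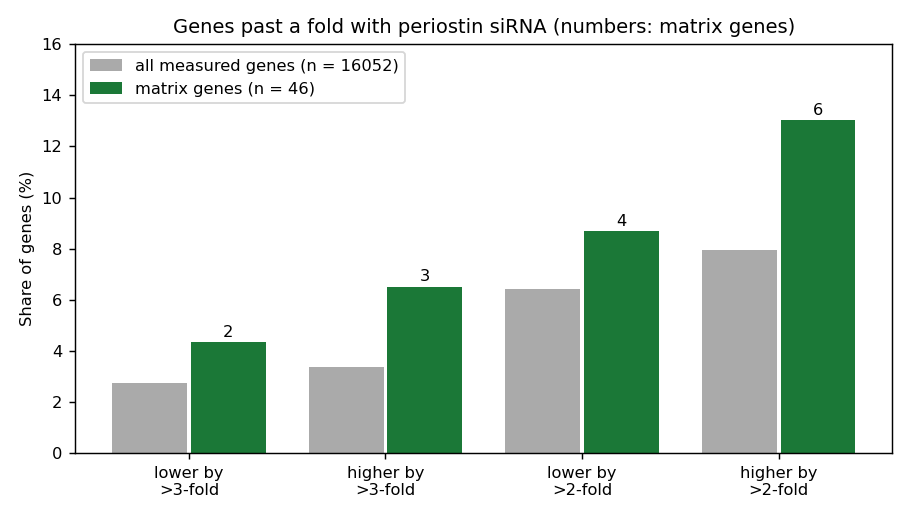
The bars give the percent of genes lower or higher by more than 3-fold and 2-fold with periostin siRNA, for all 16052 measured genes in grey and the 46 measured matrix genes in green, and the numbers above the green bars are counts of matrix genes. The green bars stand for 2, 3, 4 and 6 genes.

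Among the matricellular and adhesive glycoproteins the thrombospondins lay farthest apart. These secreted glycoproteins form trimers or pentamers that bind matrix, calcium and cell receptors. THBS2, a trimer-forming member, had signals of 249 (control siRNA) and 66.9 (periostin siRNA), a log2 ratio of -1.89 (3.72-fold lower). THBS4, a pentamer-forming member, had signals of 36.5 and 240, a log2 ratio of 2.72 (6.57-fold higher). COMP, its pentamer-forming relative known from cartilage, had signals of 22.9 and 77.0, a log2 ratio of 1.75 (3.36-fold higher). THBS4 and COMP were thus higher and THBS2 lower, each by more than the error of its spots. The remaining members of the family gave smaller ratios. THBS1, which activates latent TGF-β, had signals of 2011 and 3127, a log2 ratio of 0.64, and THBS3, a pentamer-forming member as well, had signals of 1328 and 1131, a log2 ratio of -0.23. The 5 genes had a median of 0.64, with 2 ratios below 0 and 3 above, and neither the trimer formers nor the pentamer formers shared a direction.

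The promoters of THBS2, THBS4 and COMP are shown because these 3 thrombospondins were the ones past 3-fold, in opposite directions. They lie at chr6:169253847-169254096 (THBS2, minus strand), at chr5:79991082-79991331 and chr5:80035773-80036022 for the 2 starts of THBS4 in the table (plus strand), and at chr19:18791306-18791555 (COMP, minus strand).
THBS2: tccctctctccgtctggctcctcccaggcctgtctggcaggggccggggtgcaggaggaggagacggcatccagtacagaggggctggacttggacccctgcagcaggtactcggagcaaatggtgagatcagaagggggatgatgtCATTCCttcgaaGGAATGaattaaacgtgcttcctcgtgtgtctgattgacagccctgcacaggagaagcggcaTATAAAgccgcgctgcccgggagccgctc
THBS4, first start: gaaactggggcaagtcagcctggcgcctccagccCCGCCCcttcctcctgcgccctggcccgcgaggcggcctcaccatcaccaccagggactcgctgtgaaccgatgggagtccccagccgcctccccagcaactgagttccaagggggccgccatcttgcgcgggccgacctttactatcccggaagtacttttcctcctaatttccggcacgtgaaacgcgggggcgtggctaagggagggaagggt
THBS4, second start: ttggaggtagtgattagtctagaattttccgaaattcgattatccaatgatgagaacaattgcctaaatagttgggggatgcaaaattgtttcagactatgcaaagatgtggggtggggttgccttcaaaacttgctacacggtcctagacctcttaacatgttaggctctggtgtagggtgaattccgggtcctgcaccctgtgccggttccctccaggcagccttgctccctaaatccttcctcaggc
COMP: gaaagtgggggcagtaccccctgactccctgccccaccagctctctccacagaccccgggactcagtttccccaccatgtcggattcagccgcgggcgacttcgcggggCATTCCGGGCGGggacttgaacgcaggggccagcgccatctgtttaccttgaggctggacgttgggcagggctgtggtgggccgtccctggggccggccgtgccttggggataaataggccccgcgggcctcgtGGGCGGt

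The THBS2 window held TATAAA at 29 bases before the start, the position it had in the POSTN window. ECM1 and FBLN5, which were not lower (log2 ratios 0.15 and 0.64), had TATAAA near the same place, at 30 and 33 bases. In all, 4 of 51 member promoters (7.84%) held it from 25 to 35 bases before the start, against 2.17% of all promoters, in a window set after the POSTN and THBS2 positions had been seen. The THBS2 window also held the TEAD letters on opposite strands, CATTCC at 103 and GGAATG at 91, within a run of 20 bases, from 104 to 85 before the start, that reads the same on either strand. The COMP window held GC boxes at 135 and 7 and CATTCC at 141, directly before the GC box, so that their capitals run together. The first THBS4 window held 1 GC box, at 216, and the second held none of the motifs. The array does not tell which start was used.

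MATN2, a matrilin that forms filaments in the matrix, had signals of 95.1 and 327, a log2 ratio of 1.78 (3.43-fold higher). SPP1 (osteopontin), an integrin-binding phosphoprotein of bone and of inflamed tissue, was measured by 10 spots of 1 probe. Of these, 2 were well above background with control siRNA and 10 with periostin siRNA, at signals of 4.12 and 21.0. This gave SPP1 a bound of 2.78-fold higher. The SD of the log2 ratio over its 10 spots was 1.04, with most control siRNA spots below background. MATN2 was therefore measured on both arrays, whereas SPP1 was near the limit of detection on the control siRNA array.

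The other genes of this group had ratios within 2-fold. Fibronectin (FN1), the main adhesive protein of the fibroblast matrix, had signals of 745 and 718, a log2 ratio of -0.05. Its only probe is annotated to 1 transcript variant, and whether it reads the other variants is not stated in the sources used here. The value may therefore not stand for FN1 RNA as a whole. SPARC, a collagen-binding protein, had signals of 25352 and 23094, a log2 ratio of -0.13. Tenascin C (TNC), an anti-adhesive hexamer of healing tissue, had signals of 938 and 775 (log2 ratio -0.28), and tenascin X (TNXB) had 712 and 701 (-0.02). The sign of TNXB depended on the scaling, and whether its probes also read its near-identical partial copy TNXA was not tested, since the files hold no probe sequences. SPOCK1, a SPARC-related proteoglycan, had signals of 452 and 309, a log2 ratio of -0.55. Vitronectin (VTN), an adhesive protein of plasma, had 50.1 and 69.4 (0.47), and ECM1, a secreted glycoprotein of skin and vessel matrix, had 5611 and 6208 (0.15). SPARCL1 was below background on both arrays. Over the 14 measured genes of the group the median was 0.06, 7 were above 0 and 7 below.

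Genes of elastic fibres and microfibrils gave a median of 0.02 over 16 genes, with 8 above 0 and 8 below. The scaffold genes differed little. FBN1, the main fibrillin of microfibrils, had signals of 256 and 381, a log2 ratio of 0.58, and FBN2, the fibrillin of developing tissue, had 1059 and 1157, a log2 ratio of 0.13 that was just below 0 when the arrays were scaled on the median. Elastin (ELN), the rubber-like core protein, had 31.5 and 26.1, a log2 ratio of -0.27. EMILIN1, which lies at the border of elastin and microfibrils, had 35876 and 36916, a log2 ratio of 0.04 whose sign turned with the scaling.

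The microfibril-associated proteins lay on either side. MFAP4, a fibrinogen-domain protein that helps elastic fibres assemble, had signals of 24696 and 66468, a log2 ratio of 1.43 (2.69-fold higher). MFAP2, a small glycoprotein that binds fibrillin, had signals of 468 and 186, a log2 ratio of -1.33 (2.52-fold lower). MFAP5, a relative of MFAP2 in structure, had 18.6 and 12.9, a log2 ratio of -0.53. The paired relatives MFAP2 and MFAP5 were lower and MFAP4, which is not of their family, was higher. MFAP5 rested on 1 dim spot with a propagated error of 0.30, and its ratio was -0.15 under the normexp correction described further on.

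The fibulins, proteins that join elastin to microfibrils or to the basement membrane, had a median of -0.16 over 5 genes. FBLN2 had signals of 102 and 53.1, a log2 ratio of -0.95. FBLN5, needed for elastic fibres to form, had 5235 and 8135, a log2 ratio of 0.64. FBLN1 had 12982 and 11611 (-0.16), EFEMP1 had 31098 and 25707 (-0.27), and EFEMP2, which guides lysyl oxidase to elastin, had 23706 and 26601 (0.17). FBLN2 and FBLN5 were thus the fibulins farthest from 0, in opposite directions. No fibulin was past 2-fold, except that FBLN2 was so under 3 other scalings: on the median (-1.07), quantile normalization (-1.03) and loess (-1.02).

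The latent TGF-β binding proteins, some of which tether the latent growth factor to microfibrils, all lay within 0.5. LTBP1 had signals of 6197 and 6149 (log2 ratio -0.01, of either sign with the scaling), LTBP2 had 153 and 181 (0.25), LTBP3 had 541 and 725 (0.42), and LTBP4 had 12452 and 11485 (-0.12). Their median was 0.12.

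Basement membrane genes had a median of 0.23 over 8 genes, 5 of them above 0 (37.5% below, beside 45.5% of all genes). LAMA4, the laminin α4 chain of mesenchymal and vessel laminins, had signals of 1317 and 3925, a log2 ratio of 1.57 (2.98-fold higher). It was the member nearest to the 3-fold limit without passing it. LAMA2, the α2 chain of muscle and nerve laminin, had 1035 and 1635, a log2 ratio of 0.66. The chains that partner many α chains differed less, with LAMB1 at 25172 and 24090 (-0.06) and LAMC1 at 7810 and 6552 (-0.25). Perlecan (HSPG2), a heparan sulphate proteoglycan, had 5030 and 8196 (log2 ratio 0.70), and agrin (AGRN), known from the nerve-muscle synapse, had 2436 and 3082 (0.34). The nidogens, which link laminin to collagen IV, lay near 0, at 3350 and 3301 for NID1 (-0.02) and 7535 and 8221 for NID2 (0.13), and both ratios turned sign with the scaling.

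Further laminin chains were read from a list set beside the members, chosen with earlier results of these data known. Over the 10 chains read, members included, the median was 0.60, 7 were above 0 and 3 below, 3 were higher by more than 2-fold and 0 lower. Apart from LAMA4 the chains past 2-fold were LAMB3, of epithelial laminin, at 244 and 634 (log2 ratio 1.38), and LAMA5 at 525 and 1097 (1.06). LAMA3, an α chain of epithelial laminin, was at 162 and 240 (0.56). For 1 array per condition the list is described only by these counts, beside 7.97% of all genes higher by more than 2-fold. Of all genes, 45.5% were below 0.

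The small leucine-rich proteoglycans, which coat collagen fibrils and set their width, had a median of -0.13 over 5 genes. Fibromodulin (FMOD) was measured by 10 spots, with signals of 365 and 170 and a log2 ratio of -1.10 ± 0.08 (SD over the spots of 1 array pair). Lumican (LUM), which binds the same region of collagen, had 1961 and 3481, a log2 ratio of 0.83. FMOD was lower and LUM higher by more than the error of their spots. Decorin (DCN) had 24022 and 21299 (-0.17), biglycan (BGN) had 31.9 and 32.9 (0.04, of either sign with the scaling), and asporin (ASPN) had 10.5 and 9.59 (-0.13, with a propagated error of 0.44). OGN and PRELP were below background on both arrays. Several of these genes are neighbours in the annotation. FMOD, PRELP and OPTC follow each other on chromosome 1, EPYC, KERA, LUM and DCN on chromosome 12, and OGN, OMD, ASPN and ECM2 on chromosome 9. Of the neighbours LUM and DCN the ratios were 0.83 and -0.17, and beside FMOD neither PRELP nor OPTC was above background.

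Versican (VCAN), the large hyaluronan-binding proteoglycan of loose and scarring tissue, had signals of 1922 and 1029, a log2 ratio of -0.90 (1.87-fold lower). Aggrecan (ACAN), its cartilage relative, was below background on both arrays.

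The relatives of these families numbered 62 and were listed beside the members, with earlier results of these data known. GPC2 was not found by accession, 44 had a ratio, and their median was -0.02. Lower by more than 3-fold were 2 of them and higher 1 (4.55% and 2.27%, beside 2.75% and 3.37% of all genes). At 2-fold the counts were 4 lower and 6 higher (9.09% and 13.6%, beside 6.42% and 7.97% of all genes). EMILIN2, a relative of EMILIN1, had signals of 1386 and 218, a log2 ratio of -2.67 (6.37-fold lower), while the member EMILIN1 was at 0.04. Among matrilins, MATN3, a cartilage form, had 208 and 106, a log2 ratio of -0.97, while the member MATN2 was at 1.78. In these 2 pairs, named after their values were seen, relatives thus did not share a ratio. Other sets lay mostly to 1 side. The laminin chains described above had a median of 0.60, with 7 of 10 above 0. The cell-surface proteoglycans had a median of 0.54, with 6 of 8 above 0. The 5 measured relatives of the fibrillins, fibulins and emilins, EMILIN2 among them, were all below 0 (median -0.34). Those other than EMILIN2 had a signal under 100. Of all genes, 45.5% were below 0.

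Enzymes that build the glycosaminoglycan chains of proteoglycans were part of that list, and all 14 had a ratio, with a median of -0.14. Of these, 9 were below 0 and 5 above, beside 45.5% of all genes below 0. Past 2-fold, 3 were lower and 1 higher (21.4% and 7.14%, beside 6.42% and 7.97% of all genes). Xylosyltransferases add the sugar that starts each chain. XYLT2 had signals of 10219 and 3766, a log2 ratio of -1.44 (2.71-fold lower). XYLT1, read by 1 spot, was above background with periostin siRNA alone, at 39.9, and its bound was 5.28-fold higher. That spot had a propagated error of 1.06 on the log2 scale. Under the normexp correction described further on, XYLT1 was at 0.62. The 2 enzymes for the same step were on opposite sides, XYLT1 by this single spot. For chondroitin, the synthase CHSY3 had 57.7 and 12.7, a log2 ratio of -2.18, and the sulphotransferase CHST11 had 59.6 and 24.9, a log2 ratio of -1.26. CHSY1 had 5550 and 3487 (-0.67) and CHST3 had 259 and 167 (-0.64), whereas CHPF, a chondroitin polymerising factor, had 16907 and 24653 (0.54). EXT1 and EXT2, which polymerise heparan sulphate, were at 0.43 each. B3GAT3 had 2607 and 1398 (-0.90), and CHST14, DSE, B4GALT7 and NDST1 lay within 0.5 of 0. Of the 8 cell-surface proteoglycans measured, 6 were above 0 and 2 below, while 45.5% of all genes were below 0. Past 2-fold was 1 of them (12.5%, beside 7.97% of all genes higher by as much), the syndecan SDC2 at 9.20 and 25.4 (1.46). The remaining relatives past 2-fold were SMOC1, of the SPARC family, at 20.8 and 51.0 (1.30), and ECM2, of the leucine-rich family, above background with periostin siRNA alone at 22.6, a bound of 1.58 on the log2 scale.

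**Figure D3:**
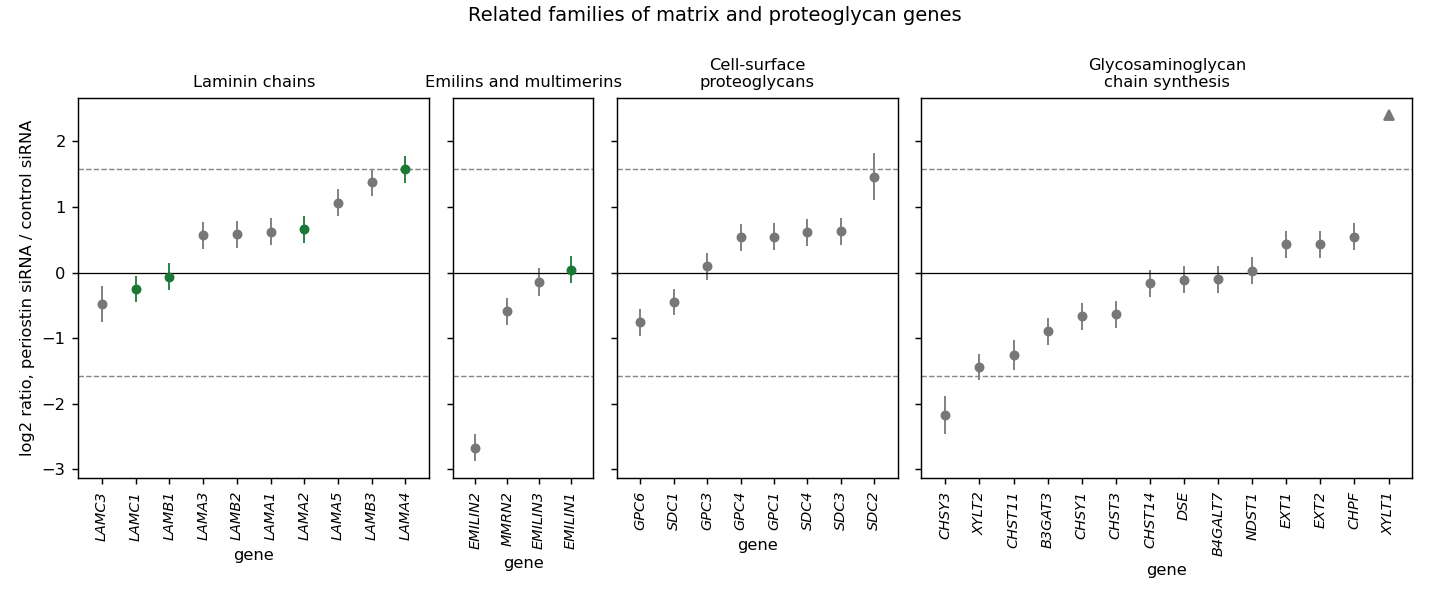
Points are log2 ratios of periostin siRNA over control siRNA for single genes, with the error of a spot pair as bars, in 4 families. Matrix genes of the list are green and relatives grey, and the panels for cell-surface proteoglycans and chain synthesis hold relatives only. Dashed lines mark 3-fold and the triangle is a bound. LAMA4 at 1.57, EMILIN2 at -2.67, CHSY3 at -2.18 and XYLT1 at a bound of 2.40 lie at the edges.

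Several probes were measured for 10 members, and the probes of 9 had 1 direction, the exception being TNXB, while 7 lay within 0.5 of each other. The second probe of THBS2 had signals of 36.0 and 17.9, a log2 ratio of -1.01, against -1.89 for the brightest. The 4 probes of LAMA4 had ratios of 1.57, 1.13, 0.95 and 0.60 and are annotated to several transcript variants. FBLN1 gave -0.16 at the brightest probe and -0.65 at both probes of another transcript variant. THBS2 and LAMA4 were hence lower and higher at every probe, by different amounts, and HSPG2 (0.23 to 0.74) and THBS1 (0.20 and 0.64) were higher at every probe. The lowest ratio of HSPG2 and that of THBS1 did not exceed their propagated errors, 0.24 and 0.20. The HSPG2 probes other than the brightest were dim, with signals from 13.9 to 35.6.

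**Figure D4:**
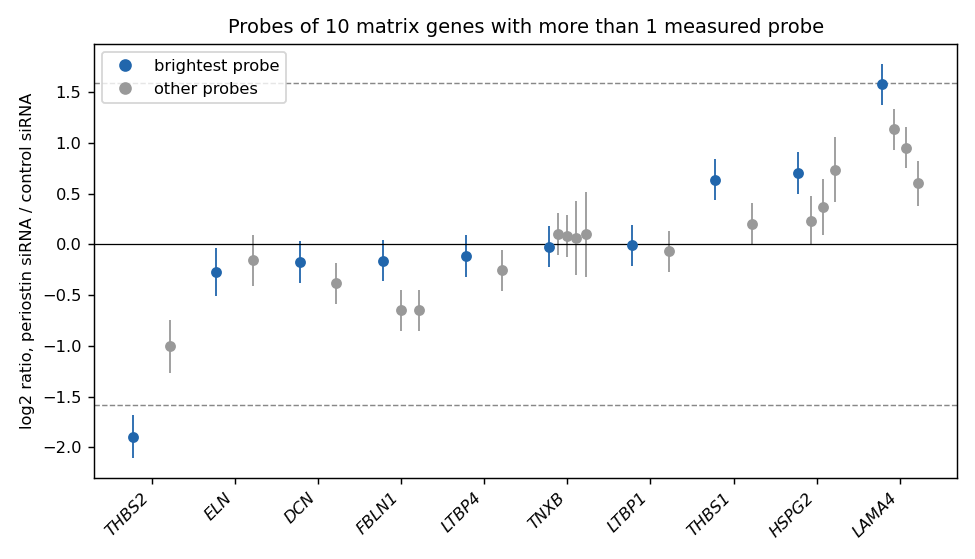
Each point is the log2 ratio of 1 probe, for the 10 matrix genes with more than 1 measured probe, with the error of a spot pair as bars. The brightest probe, which stood for the gene, is blue, dashed lines mark 3-fold, and the widest spread, 0.98, was between the probes of LAMA4.

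The ratios of dim genes changed under a second background correction that included an offset. Under normexp, a model-based correction of the raw spot signal to which an offset of 50 was added, all 11 members whose lower signal was under 100 had ratios nearer 0, and the largest move was 1.16. Among the 35 brighter members the largest move was 0.25. An offset added to both signals by itself draws the ratio of a dim gene toward 0. Normexp without the offset was not run, so the background model and the offset cannot be told apart here. THBS2 was then at -1.18 (2.27-fold lower), THBS4 at 1.61 (3.05-fold higher), MATN2 at 1.26, COMP at 0.83 and SPP1 at 0.31. POSTN and THBS4 remained past 3-fold, and no other member did. The bright genes LAMA4, MFAP4 and MFAP2 stayed past 2-fold, LAMA4 at 1.52, MFAP4 at 2.82-fold higher and MFAP2 at -1.19, and FMOD was at -0.88. Among the relatives EMILIN2 was at -2.38 and XYLT2 at -1.39, while CHSY3 was at -0.66 and XYLT1 at 0.62. LAMB3 (1.25) and LAMA5 (1.01) stayed past 2-fold, and CHST11 (-0.47), SMOC1 (0.49), SDC2 (0.29) and ECM2 (0.25) did not.

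**Figure D5:**
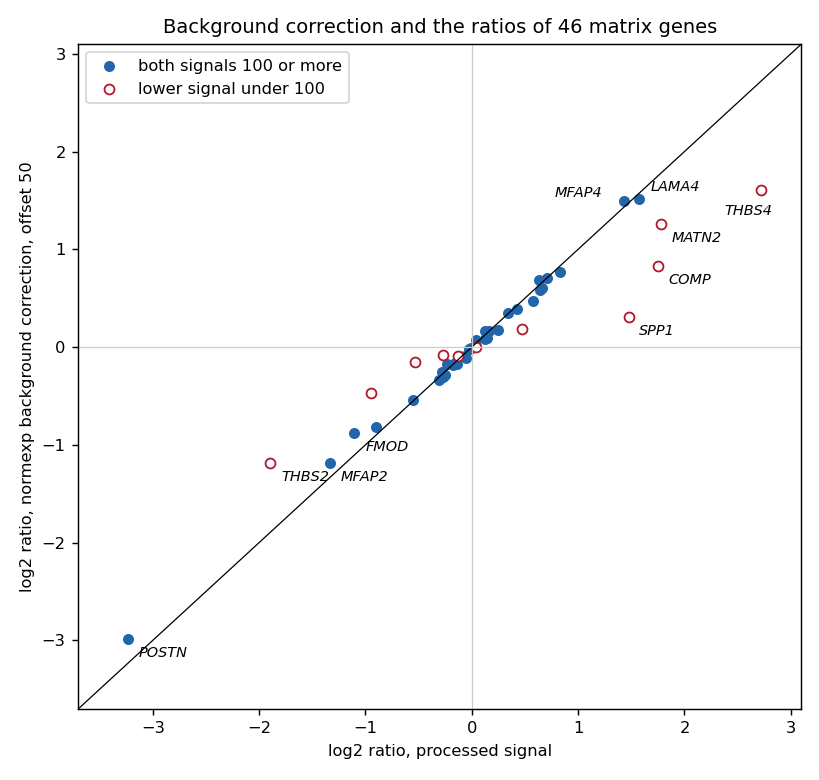
Each point is 1 of 46 matrix genes, with its log2 ratio from the processed signal on the horizontal axis and from the normexp correction on the vertical axis, and the line marks equal values. Open circles are the 11 genes with a signal under 100, which lie nearer 0 on the vertical axis, and POSTN lies at -3.24 and -2.99.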

How the data were processed

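RNA of 1 MRC-5 culture per condition was hybridised to 1 SurePrint G3 Human array each. The authors deposited 1 scanner file per array, made per the file headers with Feature Extraction 11.5.1.1 (the submitters' processing notes name 12.0.3.1), whose intensity values were background-subtracted and not scaled between arrays. Their second deposited file holds normalized intensity. It was checked against the scanner values, of which it was a fixed multiple, 3.65 (control siRNA) and 3.54 (periostin siRNA), within 0.1% for all 49697 probes printed once. The array annotation used hg19.

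Tools were Python 3.11.15 (numpy 2.4.6, pandas 2.3.3, matplotlib 3.10.9) and R 4.3.3 (limma 3.58.1). Processed signals of the 58717 non-control spots were divided by their 75th percentile on that array, 372 (control siRNA) and 383 (periostin siRNA), and taken to log2. Spots of 1 probe were averaged on the log2 scale. The brightest probe stood for a gene. A probe counted as well above background if the scanner program's flag was set on 1 spot in 2 or more. Where it was so on 1 array alone, the fold is a bound. The dim side was then set to the array's lowest signal well above background (7.43 for control siRNA, 7.89 for periostin siRNA, unscaled) or to the dim probe's signal if that was higher. Genes were named through the RefSeq table of GRCh38.p14, which matched 65.1% of spots. Its coordinates are printed for promoters only, taken from a RefSeq promoter table that held 40 of the 50 members.

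Every member is named with its value, or as below background. Of the 62 relatives, those past 2-fold are named, with others of the same families chosen after their values were seen. A further gene of the planned list is not reported here. Members and lists were chosen with earlier results of these data known. With 1 array per condition, no test was run and the number of arrays limits the precision. The scaling and the gene-level calls were tested on simulated data. The alternatives were normexp with an offset of 50 on the median spot brightness, 5 other scalings, the authors' table, the mean over probes, leaving out dim probes or spots marked as outliers, the median over spots, and thresholds of 2-fold and 4-fold. A planned comparison of the POSTN and TGFBI proteins was not analysed here, nor were the qRT-PCR and proliferation experiments.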

Additional observations from a re-analysis of the deposited data

How the results depend on the processing

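No paired analysis was possible because there is 1 array per condition, so no array could be left out either. The sign of the ratio was the same in every setting run for 39 of 46 members and turned for BGN, EMILIN1, FBN2, LTBP1, NID1, NID2 and TNXB, all near 0. Several settings could turn few signs or none. No scaling, scaling on the median and scaling on spots well above background each move every ratio by 1 constant. The authors' table is a fixed multiple of the scanner values. Leaving out dim probes or outlier spots, or taking the median over spots, did not alter members read by a single spot. A kept sign there says little beyond the distance of a ratio from 0. POSTN was at -2.99 with normexp and -3.37 with scaling on the median, and TGFBI at -0.44 with scaling on the median. Under that scaling all genes together moved by -0.13 (their median) and the members' median was -0.14, with FBLN2 and VCAN also lower by more than 2-fold, which FBLN2 was with quantile normalization (-1.03) and loess (-1.02) too. The members' median was 0.01 with the mean over probes and 0.03 with no scaling, so its sign depended on the setting. Members higher by more than 3-fold, 3 as reported, numbered 1 with normexp and with a threshold of 4-fold, and 6 at 2-fold. LAMA4 was also past 3-fold with no scaling. Members lower by more than 3-fold, 2 as reported, numbered 1 with normexp, with the mean over probes (THBS2 at -1.45) and at 4-fold, and 4 at 2-fold. Relatives higher by more than 3-fold, 1 as reported, numbered 0 with normexp and with only probes well above background on both arrays, and 2 with no scaling and with scaling on the spots well above background. With normexp 1 relative was lower by more than 3-fold in place of 2, and at 2-fold 2 were higher and 2 lower in place of 6 and 4. Of all genes past 3-fold, 55.1% were higher as reported, 42.9% with normexp and 46.3% with scaling on the median. Normexp called 190 genes lower and 143 higher by more than 3-fold in place of 441 and 541. The cause of these differences was not tested. Differences between cultures are not measured. Low signals limit the 11 members whose lower signal was under 100. These were THBS2, THBS4, COMP, SPP1, VTN, MATN2, ELN, FBLN2, MFAP5, BGN and ASPN.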
